A study of Homo sapiens with 12 samples.

Results

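The 42 genes described here encode cytokines, chemokines, their receptors, subunits and inhibitors of the transcription factor NF-kB, and genes that NF-kB is known to induce. They were chosen by name, with earlier results of these data known. All 42 were found among 29972 gene rows, CXCL8 under its older symbol IL8. The set holds 12 chemokines, 13 cytokines, 3 receptor chains, 7 NF-kB subunits or inhibitors and 7 other NF-kB targets. Messenger RNA had been sequenced from 2 human cell lines of triple-negative breast cancer: MDA-MB-436, and BoM-1833, a bone-seeking derivative of the MDA-MB-231 line. Cells were transfected for 72 h with 5 nM siRNA in total, either a pool of non-targeting siRNAs (siNT) or an equal mix of 2 siRNAs against PHF19 (siPHF19). PHF19 is an accessory subunit of the Polycomb repressive complex PRC2, which methylates histone H3 at lysine 27, and the study asked how it bears on this complex and on motility of the cells. There were 3 libraries for each of the 4 groups. Nothing in the labels says whether these came from separate cultures, so p-values measure the spread between these libraries, which may be technical. Knockdown was transient, and since both PHF19 siRNAs were given as a mix, their individual effects cannot be told apart. The control pool came from another supplier than the PHF19 siRNAs.

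NF-kB is a family of dimers built from RELA, RELB, REL and the products of NFKB1 and NFKB2. In resting cells inhibitors such as the product of NFKBIA hold the dimers in the cytoplasm; interleukin-1 and tumour necrosis factor lead to loss of the inhibitor, and the dimers move to the nucleus and bind short DNA elements called kB sites. Among the genes they switch on are neutrophil-attracting chemokines, colony-stimulating factors, interleukin-1 itself and the inhibitors that end the signal. Breast cancer cells are known to secrete several of these proteins, among them interleukin-6, interleukin-8 and interleukin-11, some of which act on bone cells.

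The neutrophil-attracting chemokines of the set lie together on the long arm of chromosome 4. The 70 bases from 120 to 51 before the RefSeq start of each are shown because 5 of these 6 genes fell in MDA-MB-436. Of all genes tested in that line 11.5% were called lower, and the call of CXCL6 was lost without any single library. In BoM-1833 only CXCL8 of the 6 was called. Capitals mark GGAATTTCC, a kB-type word searched on both strands. It was the only motif searched in promoters. Coordinates are those of GRCh38.p14, and each sequence reads 5′ to 3′ on the gene's own strand.
CXCL8 (chr4:73740449-73740518, plus strand): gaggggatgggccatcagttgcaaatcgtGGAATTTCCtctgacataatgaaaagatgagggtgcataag
CXCL6 (chr4:73836558-73836627, plus strand): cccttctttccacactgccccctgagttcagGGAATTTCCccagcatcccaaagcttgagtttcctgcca
CXCL1 (chr4:73869273-73869342, plus strand): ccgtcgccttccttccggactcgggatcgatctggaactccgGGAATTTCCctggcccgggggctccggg
CXCL5 (chr4:73998728-73998797, minus strand): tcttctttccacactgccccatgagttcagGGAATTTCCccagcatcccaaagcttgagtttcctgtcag
CXCL3 (chr4:74038740-74038809, minus strand): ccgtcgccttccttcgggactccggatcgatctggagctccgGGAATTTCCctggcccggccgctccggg
CXCL2 (chr4:74099246-74099315, minus strand): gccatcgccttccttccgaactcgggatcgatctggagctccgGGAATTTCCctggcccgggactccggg
NFKBIA (chr14:35404800-35404869, minus strand): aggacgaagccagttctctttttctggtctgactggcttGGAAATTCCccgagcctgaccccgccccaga
IL6 (chr7:22727080-22727149, plus strand): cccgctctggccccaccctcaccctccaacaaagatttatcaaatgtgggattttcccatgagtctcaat
The word lay 77 to 91 bases before the start in all 6 of these chemokine genes. It occurred in 13 of the 33 members with a promoter entry (39.4%), counting the stretch from 250 bases before to 50 after a start, against 153 of all 27305 genes with an entry (0.560%). The other 7 were CXCL10, CXCL11, NFKB1, NFKBIZ, NFKBIA, ICAM1 and TSLP. In NFKBIA it reads on the opposite strand, as shown, and IL6 is shown as a member whose window holds no exact match. Members with a promoter entry that fell in MDA-MB-436 without an exact match include IL1B, IL1A, CCL20, IL24, BIRC3, TRAF1 and SOD2. CXCL5, CXCL10, CXCL11, NFKB1, NFKBIZ and ICAM1 hold the word and were not called there. Whether the word goes with a change in level was not tested. Other forms of kB site were not searched, so the lack of an exact match does not mean that a kB site is absent. A match to these letters is a description of the sequence, and the set includes genes known as NF-kB targets, so the share is not independent of how the members were chosen.

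PHF19 mRNA was low in every siPHF19 library of both lines, at 9.75% of the siNT mean for MDA-MB-436, 10.9% for BoM-1833, with no overlap between groups. Depth ranged from 15.2 to 24.0 M reads in genes per MDA-MB-436 library, and per BoM-1833 library from 13.7 to 21.3 M. No library was a copy of another: chi-square per degree of freedom between replicates lay between 2.29 and 24.1, and siNT replicate 1 was in the 2 most distant pairs of each line. Of the receptors by whose absence triple-negative tumours are named, ESR1 and PGR had at most 4 reads in a library, while ERBB2 was at 1056 normalized counts in siNT of MDA-MB-436 and 1041 in siNT of BoM-1833. A normalized count is the number of reads of a gene divided by the size factor of its library, as deposited. Of the leukocyte markers, CD3E had no read in any library, and the fibroblast gene DCN had none. PTPRC, which all leukocytes express, had at most 1 read in a MDA-MB-436 library and 15 to 19 in a BoM-1833 library. Other markers of that list were expressed: CD68 had 528 to 913 reads and CD14 208 to 399 in a MDA-MB-436 library. In a BoM-1833 library CD68 had 2534 to 4142 reads and CD14 83 to 118.

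The lines started from different levels of these genes. Levels are reads per 1 M reads in genes (RPM), averaged over the siNT libraries, set side by side without a test because each line was normalized in its own table. MDA-MB-436 held more of most members: CXCL8 was at 645 against 64.9 in BoM-1833, IL1B at 195 against 7.93, IL6 at 226 against 9.66, and CSF3 at 157 against 2.04. CCL20, the ligand of the receptor CCR6, was at 173 against 0.188, near the level that 3 reads give in a BoM-1833 siNT library (0.141 to 0.170 RPM). BoM-1833 held more CSF2, with 7.22 against 0.847, and more PTGS2, with 37.9 against 10.1. NFKBIA, the gene of the main cytoplasmic inhibitor, was at 158 and 141. TSLP had no read in any of the 12 libraries, and CXCL6 and IL33 had none in BoM-1833.

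**Figure D1:**
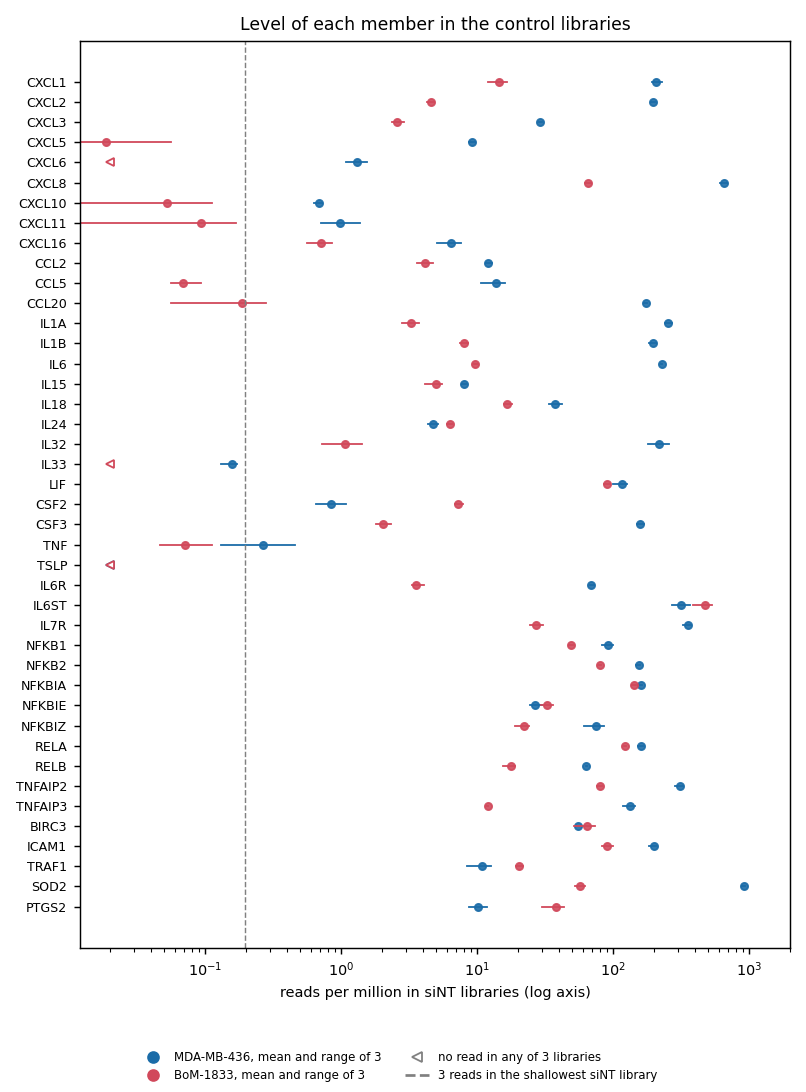
Mean level of each of the 42 members in the siNT libraries of the 2 lines, in RPM on a log axis; points are means of 3 libraries and lines run from the lowest to the highest (a line that leaves the axis at the left reaches 0). Most blue points (MDA-MB-436) lie to the right of the red ones (BoM-1833), with CSF2, PTGS2 and TRAF1 among the exceptions, and open triangles mark members with no read.

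After PHF19 knockdown more members fell than rose. In MDA-MB-436, 21 of 40 tested members were called, 5 higher and 16 lower. Over all genes tested in that line 22.1% were called, 10.5% higher and 11.5% lower. In BoM-1833, 10 of 33 tested members were called, 2 higher and 8 lower, against 10.9% of all genes tested, 5.21% higher and 5.72% lower. A call is an adjusted p under 0.05 in the authors' deposited table (DESeq2, Wald test, Benjamini-Hochberg). Log2 fold changes are siPHF19 over siNT, and a value after ± is the standard error (SE) that goes with them, from 3 libraries per group. The median log2 fold change over tested members was -0.18 for MDA-MB-436, for BoM-1833 -0.03, and over all genes it was -0.0022 and -0.0035. In MDA-MB-436, IL33 was not tested, as the table gives it no adjusted p, and TSLP was at 0; in BoM-1833, CXCL5, CXCL6, CXCL10, CXCL11, CCL5, CCL20, TNF, IL33 and TSLP were not tested. Whether a member was tested depends on its level, so the counts are not over all members. The members were chosen with earlier results of these data known, so the counts are not independent of that choice. Of the 33 tested in both lines, 7 fell in both (CXCL8, IL1A, IL1B, IL24, LIF, BIRC3 and TRAF1), 2 rose in both (IL7R and TNFAIP2) and 0 were called in opposite directions. Without siNT replicate 1, the library farthest from its group, 21 members were called in MDA-MB-436, 18 of them among those reported, and without that of BoM-1833 10 were called there, 8 of them reported. Of all 12290 genes with a test in each line, 5.67% had calls of the same direction in both. RNA from a whole culture was measured, so fewer cells that make a transcript and less of it per cell cannot be told apart.

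**Figure D2:**
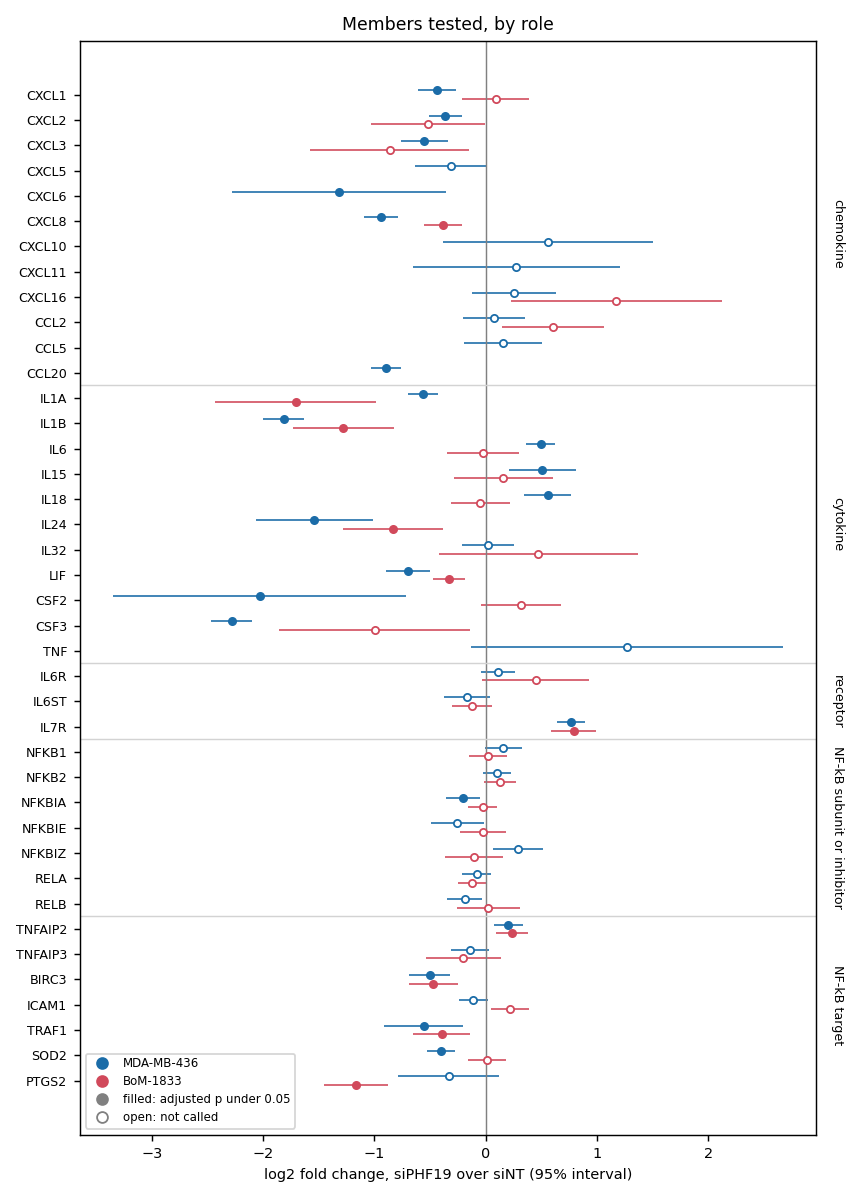
Log2 fold change of siPHF19 over siNT with its 95% interval for the 40 members tested in at least 1 line, ordered by role; filled points were called and open points were not. CSF3, CSF2 and IL1B lie furthest to the left in MDA-MB-436, and IL1A and IL1B in BoM-1833. The NF-kB subunits and inhibitors lie close to 0 in both lines.

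Chemokines that attract neutrophils through CXCR1 and CXCR2 fell in MDA-MB-436. CXCL8 (interleukin-8; chromosome 4, 73740506 to 73743716, plus strand, GRCh38, GENCODE 29, as are the gene positions that follow) had normalized counts of 13143, 11884 and 11323 in siNT and 5992, 6621 and 6296 in siPHF19, 52.0% of the siNT mean. The siPHF19 libraries lay far below the lowest siNT library. Its log2 fold change was -0.94 ± 0.08 with an adjusted p of 5.80e-32 in the authors' deposited table. In BoM-1833 the counts were 1079.6, 1132 and 1049 in siNT and 892, 834 and 772 in siPHF19, again without overlap, and CXCL8 is at a log2 fold change of -0.38 ± 0.09 in the authors' deposited table for this line (adjusted p 0.000238).

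CXCL1, CXCL2 and CXCL3 are close paralogs with the same receptor. In MDA-MB-436, CXCL1 had 4326, 3762 and 3589 in siNT and 2765, 3083 and 2776 in siPHF19. CXCL2 had 3903, 3677 and 3499 in siNT and 2734, 3006 and 2882 in siPHF19. CXCL3 had 554, 528 and 559 in siNT and 346, 379 and 393 in siPHF19. In all 3 genes every siPHF19 library lay below every siNT library. By the authors' deposited table the log2 fold changes were -0.44 ± 0.09 for CXCL1, -0.36 ± 0.07 for CXCL2 and -0.55 ± 0.11 for CXCL3, with adjusted p-values of 1.67e-05, 1.75e-05 and 5.40e-06. Some reads could be split among these genes: of the 50-base stretches in the annotated transcript of CXCL2, 9.24% also occur in CXCL1 or CXCL3, and the share is 5.73% for CXCL1 and 5.26% for CXCL3. CXCL5, CXCL6 and CXCL8 share no such stretch with the others.

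In BoM-1833 the levels of these paralogs were low and none was called. CXCL1 had 202, 276 and 242 in siNT and 255, 282 and 228 in siPHF19, so the groups overlapped. CXCL2 had 77.8, 71.0 and 81.1 in siNT and 64.6, 43.6 and 51.7 in siPHF19. CXCL3 had 41.3, 48.0 and 40.1 in siNT and 27.8, 16.5 and 26.4 in siPHF19, and neither of these 2 genes overlapped between groups. The authors' deposited table lists log2 fold changes of 0.09 ± 0.15 for CXCL1, -0.52 ± 0.26 for CXCL2 and -0.86 ± 0.36 for CXCL3, at adjusted p-values of 0.825, 0.229 and 0.119. edgeR and limma on the recovered reads called CXCL3 lower there, and over all alternatives its adjusted p ran from 0.0309 to 0.497.

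CCL20, which attracts CCR6-bearing T cells and dendritic cells, had counts of 3379, 3220.4 and 3119.8 in siNT and 1726, 1786 and 1711 in siPHF19 in MDA-MB-436. The siPHF19 libraries were at 53.7% of siNT with little spread. The log2 fold change was -0.90 ± 0.07 (adjusted p 5.21e-36, authors' deposited table). CXCL6, a further CXCR1 and CXCR2 ligand, was lower in MDA-MB-436 (log2 fold change -1.32 ± 0.49, adjusted p 0.0360, authors' deposited table) at a level near 1 RPM. Leaving out any single library ended this call (6 DESeq2 fits, adjusted p up to 0.251). CXCL5, the nearest relative of CXCL6, was not called (log2 fold change -0.31 ± 0.17, adjusted p 0.178, authors' deposited table). The remaining chemokines act mainly on monocytes and T cells, and none was called in either line. By the authors' deposited table their log2 fold changes for MDA-MB-436 ran from 0.08 for CCL2 to 0.56 for CXCL10, a gene of few reads. In BoM-1833 CXCL10, CXCL11 and CCL5 were not tested. There CXCL16, the ligand of CXCR6, is at a log2 fold change of 1.17 ± 0.49 (adjusted p 0.109) and the monocyte attractant CCL2 at 0.61 ± 0.23 (adjusted p 0.0777) in the authors' deposited table, and neither gene overlapped between groups.

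Both interleukin-1 genes fell in both lines. They encode the ligands of the receptor IL1R1 and are themselves NF-kB targets. IL1B (chromosome 2, 112829751 to 112836903, minus strand) had normalized counts of 3505, 3629 and 3819 in siNT and 1013, 1173 and 919 in siPHF19 in MDA-MB-436, where siPHF19 was at 28.3% of siNT. In BoM-1833 it had 125, 129 and 144 in siNT and 65.6, 56.6 and 40.8 in siPHF19, or 40.9%. No siPHF19 library of either line reached the siNT range. The authors' deposited table gives IL1B a log2 fold change of -1.82 ± 0.10 for MDA-MB-436 (adjusted p 1.93e-77) and of -1.28 ± 0.23 for BoM-1833 (adjusted p 1.79e-06).

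IL1A, the neighbour of IL1B (chromosome 2, 112773915 to 112784590, minus strand), had 4588, 4541 and 5014 in siNT and 3188, 3287 and 3106 in siPHF19 in MDA-MB-436. In BoM-1833 its counts were 54.8, 61.8 and 46.7 in siNT and 18.9, 16.5 and 14.4 in siPHF19. The groups were apart in both lines, at 67.7% and 30.5% of siNT. By the authors' deposited table IL1A had a log2 fold change of -0.56 ± 0.07, adjusted p 5.16e-14, for MDA-MB-436 and of -1.71 ± 0.37, adjusted p 0.000112, for BoM-1833.

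The colony-stimulating factors gave the lowest log2 fold changes of the set in MDA-MB-436. CSF3 (G-CSF, the growth factor of neutrophils; chromosome 17, 40015361 to 40017813, plus strand) had 3215, 2875 and 2765 in siNT and 601, 658 and 559.8 in siPHF19. All 3 siPHF19 libraries lay near 20.5% of the siNT mean. Its log2 fold change was -2.28 ± 0.09 with an adjusted p of 1.24e-125 in the authors' deposited table. In BoM-1833, where the gene was scarce, it had 33.3, 38.7 and 30.5 in siNT and 17.9, 8.26 and 25.2 in siPHF19; the groups did not overlap, but the log2 fold change of -0.998 ± 0.44 was not called (adjusted p 0.137, authors' deposited table). Of its alternatives, edgeR with no count filter called it, with an adjusted p of 0.0422.

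CSF2 (GM-CSF, which acts on granulocytes and macrophages; chromosome 5, 132073790 to 132076170, plus strand) was scarce in MDA-MB-436, with 15.3, 20.2 and 12.2 in siNT and 4.36, 3.31 and 4.22 in siPHF19. In BoM-1833 it was more abundant, with 115, 116 and 132 in siNT and 169, 147 and 135 in siPHF19. It was lower with siPHF19 in the former, where the groups were apart, and its siPHF19 values lay above every siNT value in the latter. The authors' deposited table gives CSF2 a log2 fold change of -2.03 ± 0.67 for MDA-MB-436 (adjusted p 0.0155) and of 0.32 ± 0.18 for BoM-1833 (adjusted p 0.318), the latter not called. With so few reads in MDA-MB-436, DESeq2 filtered the gene out in 5 of the 6 fits that left out 1 library there.

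LIF and IL24 also fell in both lines. LIF, a cytokine of the interleukin-6 family that signals through gp130, had 1912, 2222 and 2353 in siNT and 1361, 1423 and 1201 in siPHF19 in MDA-MB-436. For BoM-1833 the counts were 1442, 1561 and 1499 in siNT and 1186, 1188 and 1214 in siPHF19. Neither line showed overlap, and the siPHF19 libraries of BoM-1833 lay close together. For LIF the authors' deposited table lists log2 fold changes of -0.70 ± 0.10 at adjusted p 1.70e-10 for MDA-MB-436 and -0.33 ± 0.07 at adjusted p 0.000250 for BoM-1833. An antisense gene, LIF-AS1, overlaps LIF, and whether counting used strand is not given in the sources used here.

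IL24, a member of the interleukin-10 family, had 98.2, 81.4 and 86.8 in siNT and 27.3, 33.1 and 30.6 in siPHF19 in MDA-MB-436. The BoM-1833 libraries had 110.3, 108 and 101 in siNT and 64.6, 51.9 and 62.5 in siPHF19. Its siPHF19 level was 34.2% of siNT in the former and 56.0% in the latter. By the authors' deposited table IL24 had a log2 fold change of -1.54 ± 0.27, adjusted p 2.75e-07, for MDA-MB-436 and of -0.83 ± 0.23, adjusted p 0.00474, for BoM-1833. In BoM-1833 the call was lost without siNT replicate 2 and without siPHF19 replicate 2, where DESeq2 gave an adjusted p of 0.0787 without the latter and 0.0507 without the former.

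**Figure D3:**
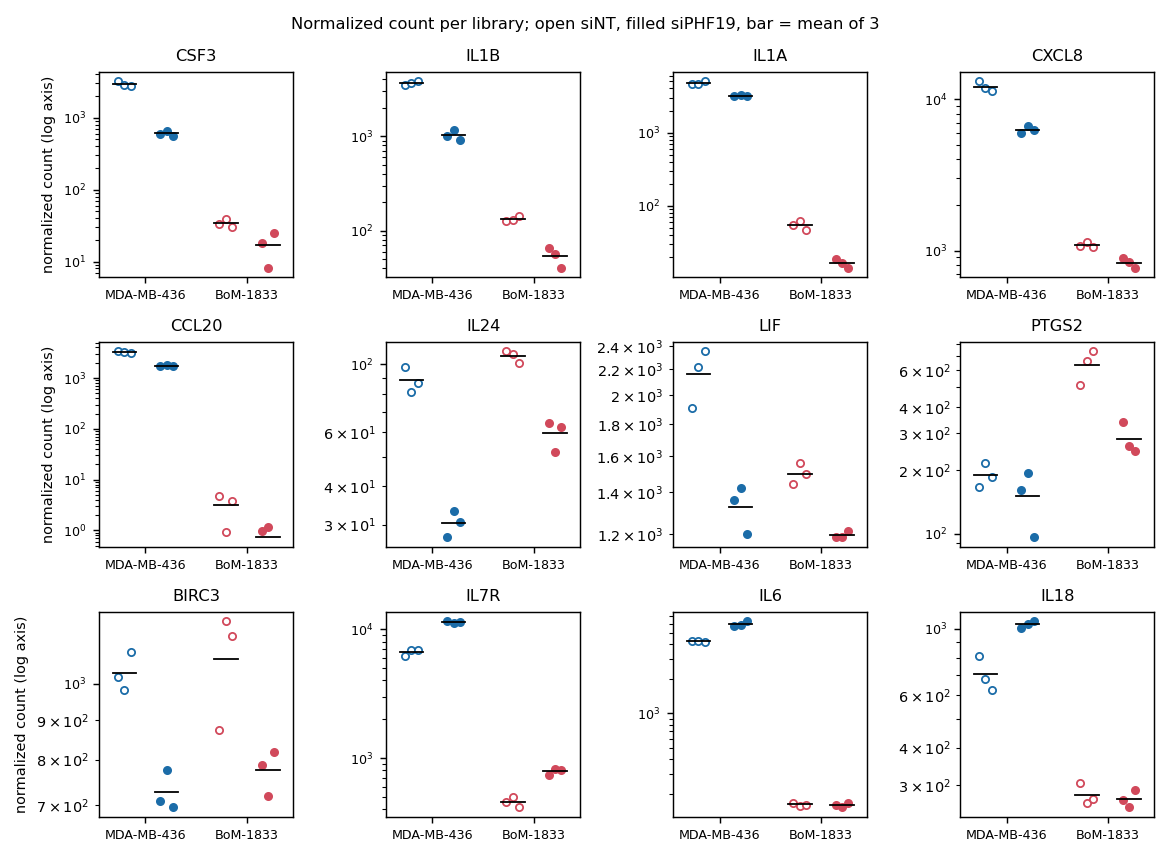
Normalized count of 12 members in each of the 12 libraries, on log axes that differ between panels; open points are siNT, filled points siPHF19, and bars are means of 3. CSF3, IL1B, CXCL8 and CCL20 show separated groups in MDA-MB-436, IL7R is higher with siPHF19 in both lines, and IL6 and IL18 are higher in MDA-MB-436; the siPHF19 library of BoM-1833 with no CCL20 read is not drawn.

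Another 3 cytokines rose in MDA-MB-436 and were not called in BoM-1833. IL6, a cytokine that signals through IL6R and gp130, had 4304, 4255 and 4196 in siNT and 5720.3, 5909.8 and 6346 in siPHF19 in MDA-MB-436 (chromosome 7, 22725884 to 22732002, plus strand). In BoM-1833 it had 167, 158 and 160.3 in siNT and 159.9, 152 and 166 in siPHF19, with full overlap. IL6 was higher in every siPHF19 library of MDA-MB-436, opposite in direction to CXCL8, CSF3 and IL1B in the same libraries. The authors' deposited table gives IL6 a log2 fold change of 0.49 ± 0.07 for MDA-MB-436 (adjusted p 3.95e-12) and of -0.02 ± 0.16 for BoM-1833 (adjusted p 0.966).

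IL18, an interleukin-1 family cytokine released by inflammasomes, had 809, 678 and 621 in siNT and 1001, 1039 and 1058 in siPHF19 in MDA-MB-436. Its BoM-1833 values were 305, 262 and 269 in siNT and 268, 252 and 289.5 in siPHF19. The groups were apart in the former and overlapped in the latter. For IL18 the authors' deposited table lists log2 fold changes of 0.56 ± 0.11 at adjusted p 4.72e-06 for MDA-MB-436 and -0.05 ± 0.13 at adjusted p 0.909 for BoM-1833. IL15, which supports T cells and natural killer cells, had 148, 155 and 147 in siNT and 206, 231 and 204 in siPHF19 in MDA-MB-436. For BoM-1833 the counts were 92.9, 89.5 and 69.6 in siNT and 83.4, 93.2 and 106 in siPHF19, the former without overlap and the latter with it. Per the authors' deposited table IL15 had a log2 fold change of 0.51 ± 0.15, adjusted p 0.00635, for MDA-MB-436 and of 0.16 ± 0.23, adjusted p 0.781, for BoM-1833. The IL15 call in MDA-MB-436 was lost without siNT replicate 2 (adjusted p 0.0600), siPHF19 replicate 1 (0.0502) or siPHF19 replicate 2 (0.140), by DESeq2. IL32 was not called in either line. TNF, tested in MDA-MB-436 at 2.45 to 15.8 normalized counts, had a log2 fold change of 1.27 ± 0.71 there (adjusted p 0.205, authors' deposited table).

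Of the 3 receptor chains, IL7R was called, higher in both lines. It encodes the alpha chain shared by the receptors of interleukin-7 and TSLP (chromosome 5, 35852695 to 35879603, plus strand). It had 6235, 6852 and 6901 in siNT and 11553, 11156 and 11321 in siPHF19 in MDA-MB-436. The BoM-1833 libraries had 454, 501 and 413 in siNT and 739, 827 and 802 in siPHF19. Each siPHF19 library was above every siNT library of its line, at 170.2% and 173% of the siNT mean. By the authors' deposited table the log2 fold change was 0.77 ± 0.07 for MDA-MB-436, adjusted p 1.34e-29, and 0.79 ± 0.10 for BoM-1833, adjusted p 2.26e-12. Their difference between lines was -0.02, with a 95% interval from -0.26 to 0.22. IL6R and IL6ST, the latter encoding gp130, were not called in either line; the authors' deposited table has IL6R at 0.11 ± 0.08 and 0.45 ± 0.24, and IL6ST at -0.17 ± 0.10 and -0.12 ± 0.09.

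Of the 7 genes of NF-kB subunits and inhibitors, 1 was called in MDA-MB-436, NFKBIA, against 22.1% of all genes tested there. In BoM-1833 0 of 7 were called, against 10.9% of all genes. None of RELA, RELB, NFKB1 and NFKB2, which encode the NF-kB subunits, was called in either line. The authors' deposited table has these 4 genes between -0.19 (RELB) and 0.16 (NFKB1) in log2 fold change for MDA-MB-436, and between -0.12 (RELA) and 0.13 (NFKB2) for BoM-1833. NFKBIA was called lower in MDA-MB-436 (log2 fold change -0.21 ± 0.08, adjusted p 0.0395, authors' deposited table) and not in BoM-1833 (-0.02 ± 0.07, adjusted p 0.900). That call was lost under 12 of 17 alternatives, edgeR and 5 of the 6 fits without 1 library among them, with an adjusted p of up to 0.336 without siPHF19 replicate 1. It held only without siNT replicate 3 of those 6. NFKBIE, another cytoplasmic inhibitor, and NFKBIZ, a nuclear co-regulator, were not called; NFKBIZ had a log2 fold change of 0.29 ± 0.12 in MDA-MB-436 (adjusted p 0.0556, authors' deposited table).

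Among the other NF-kB targets, BIRC3 and TRAF1 fell in both lines. Their products act together at tumour necrosis factor receptors and limit cell death. BIRC3 (chromosome 11, 102317450 to 102339403, plus strand) had 1022, 982 and 1098 in siNT and 709, 777 and 695 in siPHF19 in MDA-MB-436. Its BoM-1833 values were 872, 1203 and 1152 in siNT and 789, 719 and 818 in siPHF19. The groups did not overlap, although siNT replicate 1 of BoM-1833 lay below the other siNT libraries. The authors' deposited table gives BIRC3 a log2 fold change of -0.50 ± 0.09 for MDA-MB-436 (adjusted p 1.18e-06) and of -0.47 ± 0.11 for BoM-1833 (adjusted p 0.000593).

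TRAF1 had 162, 212 and 236 in siNT and 128, 145 and 140.5 in siPHF19 in MDA-MB-436. For BoM-1833 the counts were 342, 317 and 365 in siNT and 256, 285 and 238 in siPHF19. The groups did not overlap in either line, and siNT replicate 1 of MDA-MB-436 lay nearest to the siPHF19 libraries. For TRAF1 the authors' deposited table lists log2 fold changes of -0.56 ± 0.18 at adjusted p 0.0127 for MDA-MB-436 and -0.39 ± 0.13 at adjusted p 0.0287 for BoM-1833. Without 1 library the call was lost in all 6 fits of BoM-1833 (adjusted p up to 0.237, without siPHF19 replicate 3) and in 5 of the 6 of MDA-MB-436 (up to 0.119, without siNT replicate 2); it held there without siNT replicate 1. TNFAIP2, a gene first described as induced by tumour necrosis factor, rose in both lines. It had 5391, 6047 and 5901 in siNT and 6703, 6594 and 6646 in siPHF19 in MDA-MB-436. The BoM-1833 libraries had 1288, 1321 and 1379 in siNT and 1622, 1491 and 1583 in siPHF19. Every siPHF19 library lay above the siNT range of its line, by a small margin. Per the authors' deposited table TNFAIP2 had a log2 fold change of 0.20 ± 0.07, adjusted p 0.0158, for MDA-MB-436 and of 0.24 ± 0.07, adjusted p 0.0167, for BoM-1833. In MDA-MB-436 this call was lost without siNT replicate 2 or any siPHF19 replicate (adjusted p up to 0.156, without siPHF19 replicate 1), and in BoM-1833 without siNT replicate 2, siPHF19 replicate 1 or siPHF19 replicate 3 (up to 0.175, without siPHF19 replicate 1).

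SOD2, the mitochondrial superoxide dismutase, had 17781, 17220.2 and 16269 in siNT and 12788, 13533 and 12598 in siPHF19 in MDA-MB-436. Its BoM-1833 values were 876, 945 and 1035 in siNT and 965, 947 and 966 in siPHF19. It fell in the former and overlapped between groups in the latter. The authors' deposited table gives SOD2 a log2 fold change of -0.40 ± 0.06 for MDA-MB-436 (adjusted p 2.07e-08) and of 0.01 ± 0.09 for BoM-1833 (adjusted p 0.966). WTAP and ACAT2 overlap the annotated SOD2 locus on the opposite strand, so some reads may be shared. PTGS2, the inducible cyclooxygenase that makes prostaglandin precursors (chromosome 1, 186671791 to 186680427, minus strand), had 167, 218 and 186 in siNT and 161, 195 and 96.1 in siPHF19 in MDA-MB-436, with overlap. In BoM-1833 it had 506, 663 and 736 in siNT and 338, 261 and 247 in siPHF19, where siPHF19 lay at 44.4% of siNT without overlap. For PTGS2 the authors' deposited table lists log2 fold changes of -0.33 ± 0.23 at adjusted p 0.331 for MDA-MB-436 and -1.17 ± 0.15 at adjusted p 3.33e-13 for BoM-1833. PTGS2 was the 1 member called in BoM-1833 but not in MDA-MB-436. The adhesion molecule gene ICAM1 and the feedback inhibitor gene TNFAIP3 were not called in either line. For ICAM1 the authors' deposited table has log2 fold changes of -0.11 ± 0.07 and 0.22 ± 0.09, and for TNFAIP3 of -0.14 ± 0.09 and -0.20 ± 0.17, MDA-MB-436 first.

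A z test per gene asked whether the log2 fold change differed between lines, adjusted over 12290 genes, and 6 of 33 members passed against 4.89% of all genes. CXCL8 fell more in MDA-MB-436, by a difference of -0.56 ± 0.12 (adjusted p 0.000123). SOD2 and CSF2 also had lower values in MDA-MB-436, with differences of -0.41 ± 0.11 (adjusted p 0.00632) and -2.35 ± 0.70 (adjusted p 0.0212). IL18 was higher in MDA-MB-436 by 0.60 ± 0.17 (adjusted p 0.0151). IL1A and PTGS2 fell more in BoM-1833, with differences of 1.15 ± 0.38 (adjusted p 0.0481) and 0.83 ± 0.27 (adjusted p 0.0486), both close to the threshold. IL6, called higher in MDA-MB-436, did not pass, with a difference of 0.52 ± 0.18 (adjusted p 0.0618), nor did CXCL1 (-0.53 ± 0.18, adjusted p 0.0559) or CSF3 (-1.28 ± 0.45, adjusted p 0.0706). For IL1B, lower in both lines, the difference was -0.54 ± 0.25 with a 95% interval from -1.03 to -0.04. In 1 fit of all 12 libraries the interaction term passed for IL6 (adjusted p 0.00102 in DESeq2, 0.00509 in edgeR) and CSF3 (0.000353 and 0.0308), and in DESeq2 alone also for CXCL1 (0.0167), LIF (0.0352) and ICAM1 (0.0437). Without siNT replicate 2 or any of the siPHF19 replicates of MDA-MB-436 the z test passed for 2 members. CXCL8 passed in each of the 12 fits that left out 1 library, and CSF2 in all 7 that tested it. The 5 that did not test CSF2 all left out a MDA-MB-436 library, so its low values in that line were hardly put to this check. SOD2 passed in 10 of 12, failing without siPHF19 replicate 1 or 3 of MDA-MB-436 (adjusted p up to 0.0532). IL18 passed in 6 of 12 (up to 0.100, without siPHF19 replicate 2 of BoM-1833), PTGS2 in 3 of 12 (up to 0.385, without siPHF19 replicate 2 of MDA-MB-436) and IL1A in 1 of the 10 that tested it (up to 0.277, without siNT replicate 2 of BoM-1833).

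**Figure D4:**
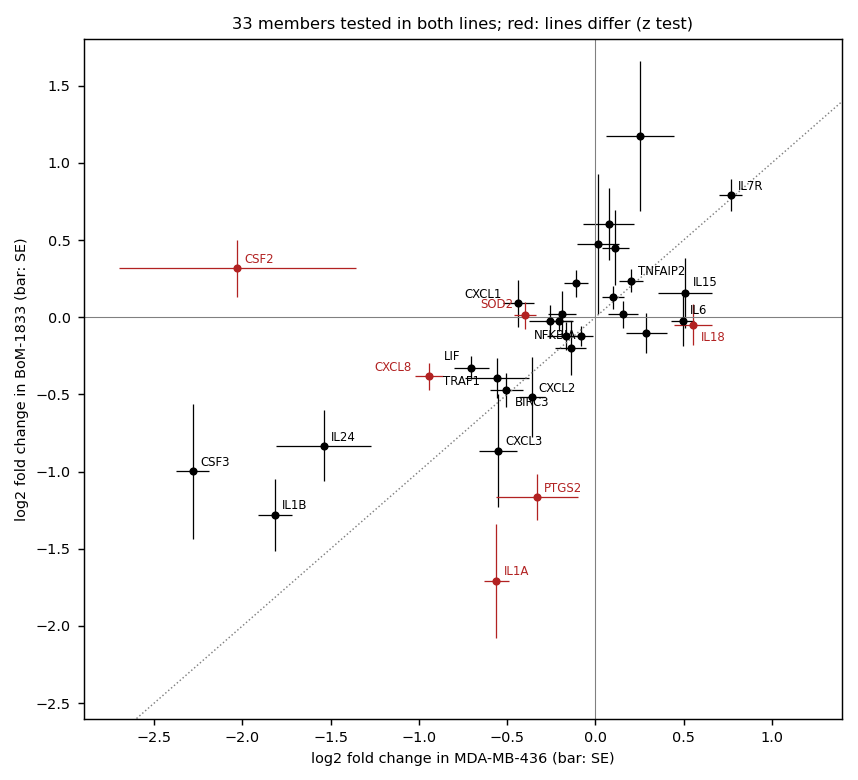
Log2 fold change in BoM-1833 against that in MDA-MB-436 for the 33 members tested in both lines, with bars of 1 SE; the dotted line marks equal values and red marks the 6 members whose fold changes differed between lines. CSF3, IL1B and IL24 lie at the lower left, IL7R at the upper right on the dotted line, and CSF2 far to the left near the middle height.

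The other genes of the pathway were read from 5 lists of 119 genes in all. Of the 29 listed NF-kB signalling components found, 1 was higher and 5 lower in MDA-MB-436, and 1 was higher and 1 lower in BoM-1833, against 22.1% and 10.9% of all genes called. IKBKG, the regulatory subunit of the IkB kinase, and TNIP2 were lower for MDA-MB-436 by the authors' deposited table, at -0.32 ± 0.08 (log2; adjusted p 0.000894) and -0.38 ± 0.10 (log2; adjusted p 0.00277). The authors' deposited table for BoM-1833 has BCL3, an atypical nuclear inhibitor, higher at 0.62 ± 0.11 (log2; adjusted p 1.27e-06), and CYLD, a deubiquitinase that restrains the pathway, lower at -0.24 ± 0.08 (log2; adjusted p 0.0187). Of 30 receptors, 15 were tested for MDA-MB-436, 14 for BoM-1833, and 1 was called in each, a smaller share than of all genes. IL15RA was lower in the former by the authors' deposited table, at -0.58 ± 0.14 (log2; adjusted p 0.000414), and TNFRSF1B was higher in the latter, at 0.42 ± 0.14 (log2; adjusted p 0.0346). None of these 6 genes was called in the other line, and only BCL3 of them passed the z test for a difference between lines described above (adjusted p 0.0201).

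Of 22 further NF-kB-inducible genes tested in MDA-MB-436, 5 were higher and 1 lower, beside 10.5% and 11.5% of all genes tested there. Of 17 tested in BoM-1833, 3 were higher and 1 lower, beside 5.21% and 5.72%. The gene lower in MDA-MB-436 was IL11, at -1.31 ± 0.15 (log2, adjusted p 4.50e-17, authors' deposited table). In BoM-1833 IL11 was not called (log2 fold change 0.08 ± 0.07, adjusted p 0.553, authors' deposited table). Its log2 fold change differed between lines (z test, adjusted p 1.24e-14). The acute-phase serum amyloid gene SAA1 rose in both lines by the authors' deposited table, 1.27 ± 0.11 (log2; adjusted p 1.40e-30) for MDA-MB-436 and 1.28 ± 0.44 (log2; adjusted p 0.0384) for BoM-1833, where it had 11 to 30 reads. SAA2 rose in MDA-MB-436 (log2 fold change 1.22 ± 0.11, adjusted p 2.96e-26, authors' deposited table) and was not tested in BoM-1833; the genes are near-identical copies, so reads may be split between them. The pentraxin gene PTX3 rose in both lines by the authors' deposited table, 0.74 ± 0.07 (log2; adjusted p 9.80e-22) and 0.54 ± 0.06 (log2; adjusted p 7.86e-16). The growth factor gene HBEGF fell in BoM-1833 (log2 fold change -0.72 ± 0.08, adjusted p 7.55e-16) and was not called in MDA-MB-436 (log2 fold change -0.01 ± 0.11, adjusted p 0.968), authors' deposited table, and its log2 fold change differed between lines (z test, adjusted p 3.45e-05). The list's median log2 fold change was 0.21 for MDA-MB-436, 0.10 for BoM-1833.

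On the gp130 and STAT3 axis, which carries the signals of IL6 and LIF, 3 of 14 tested genes were higher and 1 lower in MDA-MB-436 (all genes 10.5% and 11.5%), and 3 were higher and 0 lower in BoM-1833 (all genes 5.21% and 5.72%). STAT3 itself rose in both lines by the authors' deposited table, 0.33 ± 0.07 (log2; adjusted p 5.68e-05) for MDA-MB-436 and 0.31 ± 0.06 (log2; adjusted p 3.91e-06) for BoM-1833. JAK1, its upstream kinase, rose in MDA-MB-436 (log2 fold change 0.38 ± 0.10, adjusted p 0.000688) and was not called in BoM-1833 (log2 fold change -0.12 ± 0.08, adjusted p 0.399), authors' deposited table, with a difference between lines (z test, adjusted p 0.00215). PIAS3, which binds STAT3, had nearly the same value in both lines but was called, higher, in BoM-1833 alone: 0.23 ± 0.10 (log2; adjusted p 0.0831) for MDA-MB-436 and 0.22 ± 0.06 (log2; adjusted p 0.0108) for BoM-1833 in the authors' deposited table. Of the AP-1 and C/EBP factors, which act on many of the same promoters, 2 of 13 were higher and 2 lower in MDA-MB-436, and 0 of 12 were higher and 2 lower in BoM-1833; these shares too can be read against 22.1% and 10.9% of all genes called. JUN fell in both, -0.33 ± 0.07 (log2; adjusted p 1.12e-05) and -0.29 ± 0.06 (log2; adjusted p 4.34e-05), in the authors' deposited table. FOSL1 also fell in both lines by the authors' deposited table, -0.31 ± 0.08 (log2; adjusted p 0.000654) and -0.41 ± 0.07 (log2; adjusted p 4.98e-08). ATF3 rose in MDA-MB-436 (log2 fold change 0.56 ± 0.12, adjusted p 2.30e-05) and was not called in BoM-1833 (log2 fold change -0.15 ± 0.22, adjusted p 0.792), authors' deposited table, and its difference between lines did not pass the z test (adjusted p 0.0700).

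Markers of other cell types were set beside these results. Of 6 leukocyte markers, 3 were tested in each line; 2 were lower in MDA-MB-436, CD68 (log2 fold change -0.36 ± 0.10, adjusted p 0.00277) and CD14 (log2 fold change -0.37 ± 0.14, adjusted p 0.0399) in the authors' deposited table, and 0 were called in BoM-1833. Their summed level was 55.9 to 59.9 RPM in siNT and 42.9 to 48.1 in siPHF19 in MDA-MB-436, and 192 to 206 and 187 to 196 in BoM-1833. CD3E was at 0 in all libraries. Of the 3 endothelial markers 1 was tested in each line and not called, and none of the 3 fibroblast markers was tested in either line, with summed siNT levels of 1.33 to 2.05 RPM and 0.333 to 0.593 RPM for MDA-MB-436. For BoM-1833 these sums were 16.9 to 24.5 RPM and 0.0558 to 0.283 RPM. Of the keratins and vimentin, KRT8 rose in both lines by the authors' deposited table, 0.69 ± 0.08 (log2; adjusted p 3.17e-14) for MDA-MB-436 and 0.70 ± 0.05 (log2; adjusted p 2.94e-36) for BoM-1833, as did KRT18, 0.26 ± 0.06 (log2; adjusted p 0.000731) and 0.46 ± 0.06 (log2; adjusted p 6.16e-12). Vimentin (VIM) was lower in BoM-1833, and KRT7 was not called in either line. KRT19 was not called in BoM-1833 and not tested in MDA-MB-436, where it had at most 1 read in a library. The calls among these few markers can be read against 22.1% and 10.9% of all genes called in MDA-MB-436 and BoM-1833. The part of these markers in the fall of the members was not tested.

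The 6-base word AAACTG, picked with earlier results of these data known, was counted in the annotated 3′ UTRs of the members. It occurred in 48.1% of 11023 genes with a UTR among those tested in both lines (median UTR length 1432 bases). Of the 33 members tested in both lines, 14 held it (42.4%, median length 1139 bases). Among members it was present in 5 of 16 that fell in MDA-MB-436 (31.2%; median length 986.5 bases), in 1 of 5 that rose there (1139 bases) and in 12 of 19 not called there (63.2%; 1053 bases). Of the 7 that fell in both lines, 3 held it (1252 bases). A longer UTR has more room for such a word, the lengths differ, and these shares were not compared by a test. The share among all genes that fell, rose or were not called in MDA-MB-436 was not counted.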

How the data were processed

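The members and all gene lists were chosen with earlier results of these data known. The authors deposited 1 table per line, with 29972 gene rows, for 12 libraries of stranded mRNA. The deposited value of a gene in a library is a signal: its reads over that library's size factor. Log2 fold changes, standard errors, Wald statistics (a score) and p-values, raw and adjusted, were computed and deposited by the authors. Per the submitters' processing notes, STAR, RSEM 1.3.1, DESeq2 1.46.0 and hg38 were used; the annotation and the use of strand are not given in the sources used here.

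The main test was the deposited DESeq2 result, at an adjusted p under 0.05. Each library's values were whole multiples of 1 step (100% within 0.02 reads), so reads were recovered for the alternatives: DESeq2 1.42.0, which gave the same 3143 and 1411 calls, edgeR 4.0.16 and limma 3.58.1 on log2 values with a pseudocount of 1, 0.5 or 5. Depth was 13.7 to 24.0 M reads. These scripts were run on simulated reads whose spread was fitted to these data. Such a run checks the code and not how these libraries were made. The difference between lines is z, in which the gap between the log2 fold changes is divided by the square root of the sum of their squared standard errors, 2-sided, Benjamini-Hochberg adjusted over 12290 genes.

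Values per library are given for up to 20 members called in at least 1 line, taken by the largest absolute Wald statistic, and for each list the 2 called genes with the largest such statistic per line. IL11 is given in addition to these. Promoters are those of RefSeq (GRCh38.p14), with entries for 33 of 42 members; gene positions, transcripts and 3′ UTRs are from GENCODE 29. The number of columns that belonged to no sample was 0. The result of 1 listed marker gene is not reported here.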

Additional observations from a re-analysis of the deposited data

Results flagged for a closer look

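The log2 fold changes of 6 members differed between the lines by the z test, and each is given as MDA-MB-436 minus BoM-1833. The differences were -0.56 for CXCL8, -0.41 for SOD2, -2.35 for CSF2, 0.60 for IL18, 1.15 for IL1A and 0.83 for PTGS2. An interaction term in 1 DESeq2 fit of all 12 libraries passed for all of these but PTGS2 (adjusted p 0.0678), and in edgeR likewise (PTGS2 adjusted p 0.112). CXCL8 is the member that also passed with a replicate block. For IL1A, the fits without 1 library that tested it passed only without siNT replicate 3 of MDA-MB-436. The level of IL1A in BoM-1833 and that of CSF2 in MDA-MB-436 were low, and the part of depth in these differences was not tested.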

How the results depend on the processing

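The count of members called lay between 15 and 21 for MDA-MB-436 and between 7 and 14 for BoM-1833 under all alternatives except the requirement of an absolute log2 fold change of at least 0.5, which left 15 and 5, and 4 members in both lines. Without 1 library, 15 to 21 members were called for MDA-MB-436 (21 as reported), 7 to 10 for BoM-1833 (10 as reported) and 6 to 9 for both lines (9 as reported). Of 31 calls, 15 were kept under every alternative that tested the gene and 23 in every such fit without 1 library, and no call reversed its direction. The count of members that differ between lines depended most on the setting: 6 as reported, 2 at an adjusted p under 0.01, 10 by the interaction in DESeq2, 7 by that in edgeR, and 2 to 9 without 1 library. Over all genes, calls fell from 3143 to 2080 and from 1411 to 919 at an adjusted p under 0.01; the fold minimum left 1135 and 392. Without 1 library they ran from 1767 to 3801 for MDA-MB-436 and from 746 to 2046 for BoM-1833. The 601 genes that differ between lines became 334 at an adjusted p under 0.01, 901 by the DESeq2 interaction and 301 to 1056 without 1 library.

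Deviations of same-numbered libraries correlated between -0.31 and 0.04. Those of unlike number correlated between -0.04 and 0.27 in MDA-MB-436 and between -0.19 and 0.33 in BoM-1833. In both lines the highest value was that of siNT replicate 3 with siPHF19 replicate 1. With 3 libraries per group these values depend on one another and cannot decide whether libraries were paired. Whether the libraries share a batch or another order was not tested. With a replicate block DESeq2 called 15 members in MDA-MB-436, 7 in BoM-1833, 6 in both and 1 that differed between lines, with 1610, 610 and 190 genes called or differing in all. Genes with few reads, such as CSF2 in MDA-MB-436 and IL1A and CSF3 in BoM-1833, were left untested in some fits without 1 library. TNF, CCL20 and CXCL6 in BoM-1833 were at or below a few reads, and a change in them was not detectable at this depth.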
